A study of Homo sapiens with 4 samples.

Results

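RAG1, RAG2 and DNTT carry out V(D)J recombination, and the H3K27ac peaks over these 3 genes were described in 2 B-cell precursor leukemia lines, REH and 697. The gene bodies were fixed on hg19 in whole kb, and each window was the body with 10 kb added on each side. All peaks that overlapped a window by at least 1 bp were taken, which gave 6 of 44626 peaks in REH and 9 of 74504 in 697. REH carries the ETV6/RUNX1 fusion and has lost its other ETV6 allele. The 697 line served as the fusion-negative line. Both are established cell lines labelled B-ALL and grown untreated in RPMI with serum, each was profiled in 1 ChIP library, and the input DNA of the same line was the control of the peak calling. There were no replicates, so no test between the lines was possible, and every difference below compares 2 libraries.

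Developing B and T cells assemble their antigen receptor genes by cutting and joining V, D and J segments. RAG1 and RAG2 form the recombinase: RAG1 holds the catalytic site and binds the recombination signals, and RAG2 is its cofactor, which reads methylated histone H3. DNTT encodes terminal deoxynucleotidyl transferase (TdT), a polymerase that adds bases without a template at the junctions and is used as a marker of lymphoblasts. H3K27ac is a histone mark found at active promoters and enhancers. A long unbroken stretch of the mark is often seen over genes that are central to the identity of a cell. The breaks that the recombinase makes are joined by the end-joining factors XRCC4, XRCC5, XRCC6, LIG4, DCLRE1C, PRKDC, NHEJ1, PAXX, POLM and POLL, with HMGB1, HMGB2, ATM and TP53BP1 as helpers or sensors. The peaks at these 14 genes and at B-cell, T-cell and myeloid markers were not analysed here, because their hg19 positions were not at hand. The B-cell label was therefore not checked, since developing T cells use the 3 genes too.

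In GENCODE v44, on GRCh38, RAG1 (ENSG00000166349) lies on the plus strand of chromosome 11 and RAG2 (ENSG00000175097) on the minus strand, so that the pair point at each other, with 12180 bp between the 3′ ends of the canonical transcripts. Each has 2 exons in that transcript, and only 1 of them carries coding sequence. DNTT (ENSG00000107447) lies on the plus strand of chromosome 10 with 11 exons. The coordinates of this annotation were not joined to the hg19 peaks, and only gene order, strand and distances within GRCh38 were taken from it. RAG2 shares its intron with the start of IFTAP on the opposite strand. The lncRNA ENSG00000229418 runs antisense across the start of DNTT. TRAF6 is the neighbour upstream of RAG1, BLNK (an adaptor of the pre-B-cell receptor) the neighbour upstream of DNTT, and OPALIN the neighbour downstream of DNTT.

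Peaks lay over the starts of all 3 gene bodies in both lines. The sequences shown lie before that start at RAG2 and DNTT, and before another, more upstream start at RAG1. They come from the RefSeq promoter table on GRCh38.p14, in which 3 of 3 genes were found, and are printed 5′ to 3′ along the gene without the bases that lie in an exon of a protein-coding gene. Capitals mark matches to the E-box CANNTG, the letters bound by E2A and related factors.
RAG1 (chr11:36510273-36510352, plus strand): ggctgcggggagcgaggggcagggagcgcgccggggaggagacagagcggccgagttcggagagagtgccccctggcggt
RAG2 (chr11:36598280-36598486, minus strand): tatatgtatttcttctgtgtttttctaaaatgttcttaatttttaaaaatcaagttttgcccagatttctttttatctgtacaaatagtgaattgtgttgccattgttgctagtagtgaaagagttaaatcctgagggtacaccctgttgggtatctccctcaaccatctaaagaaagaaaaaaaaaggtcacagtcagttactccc
DNTT (chr10:96304184-96304408, plus strand): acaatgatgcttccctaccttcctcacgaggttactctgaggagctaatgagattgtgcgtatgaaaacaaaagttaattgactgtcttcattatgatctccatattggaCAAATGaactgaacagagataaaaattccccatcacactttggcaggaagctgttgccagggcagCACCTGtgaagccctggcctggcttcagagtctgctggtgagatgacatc

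The RAG1 entry belongs to the most upstream start of the gene, 57.6 kb before the canonical one and next to TRAF6, and not to the start of the body used here. Over the 250 bases before the start, G and C made up 70.0% at this upstream RAG1 start, 34% at RAG2 and 46.4% at DNTT, against a median of 58.0% over the 35116 promoters of the table. The stretch at the upstream RAG1 start held 25 CpG, the RAG2 stretch 0 and the DNTT stretch 3, against a median of 11. The E-box was matched 2 times at DNTT and 1 time each at RAG2 and at the upstream RAG1 start, both outside the bases printed, on either strand. It occurs in 61.8% of all promoters of that length. The RUNX letters TGTGGT occur in 11.0% of them and were matched in 0 of the 3. The ETS core GGAA, present in 92.7%, was matched 4 times at DNTT, 1 time at the upstream RAG1 start and 0 times at RAG2. CCAAT, present in 32.0%, was matched 1 time, at DNTT. No match or lack of one shows whether a factor binds.

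All 3 genes had H3K27ac peaks in both lines, over the start of the gene as well as in the window. A peak in both lines was found in 56.7% of the genome tiles of the RAG1 width that held any peak, in 54.5% for the RAG2 width and in 62.6% for the DNTT width. The REH peaks were long: the longest peak over each gene body measured at least 10 kb at 3 of the 3 genes, a length reached by 0.587% of all REH peaks. In 697 this held for 1 of the 3, DNTT, and for 0.444% of all peaks. These shares are over single peaks, not over the longest peak of each gene. The count also depends on short gaps, since at RAG1 the 3 peaks of 697 were parted by 912 and 1079 bp. A window counted as differential if peaks were found in 1 line alone, or if one line had at least 2 times the covered bases of the other. By this rule 0 of the 3 windows were differential, against 66.6%, 67.7% and 63.6% of the tiles of the RAG1, RAG2 and DNTT width. These shares include the tiles with peaks in 1 line alone, which are differential by definition, whereas the 3 windows had peaks in both lines. The share among tiles with peaks in both lines was not computed. The tiles that were higher in REH made up 22.2%, 22.1% and 22.1%, and those higher in 697 made up 44.5%, 45.5% and 41.5%. With the gene body alone, RAG2 was differential and higher in REH, a call that 22% of the 7 kb tiles with any peak also met. When only peaks with a deposited q-value of at most 0.05 were kept, the RAG1 window was differential, with a ratio of 2.86. The deposited q-value need not be the one by which a peak was called. Some peaks in the windows had a q above the calling cutoff of 0.1. In 697 their −log10(q) was 0.729 in the DNTT window, and 0.742 and 0.837 in the RAG2 window. In REH it was 0.988 for a peak of 217 bp in the RAG2 window.

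**Figure D1:**
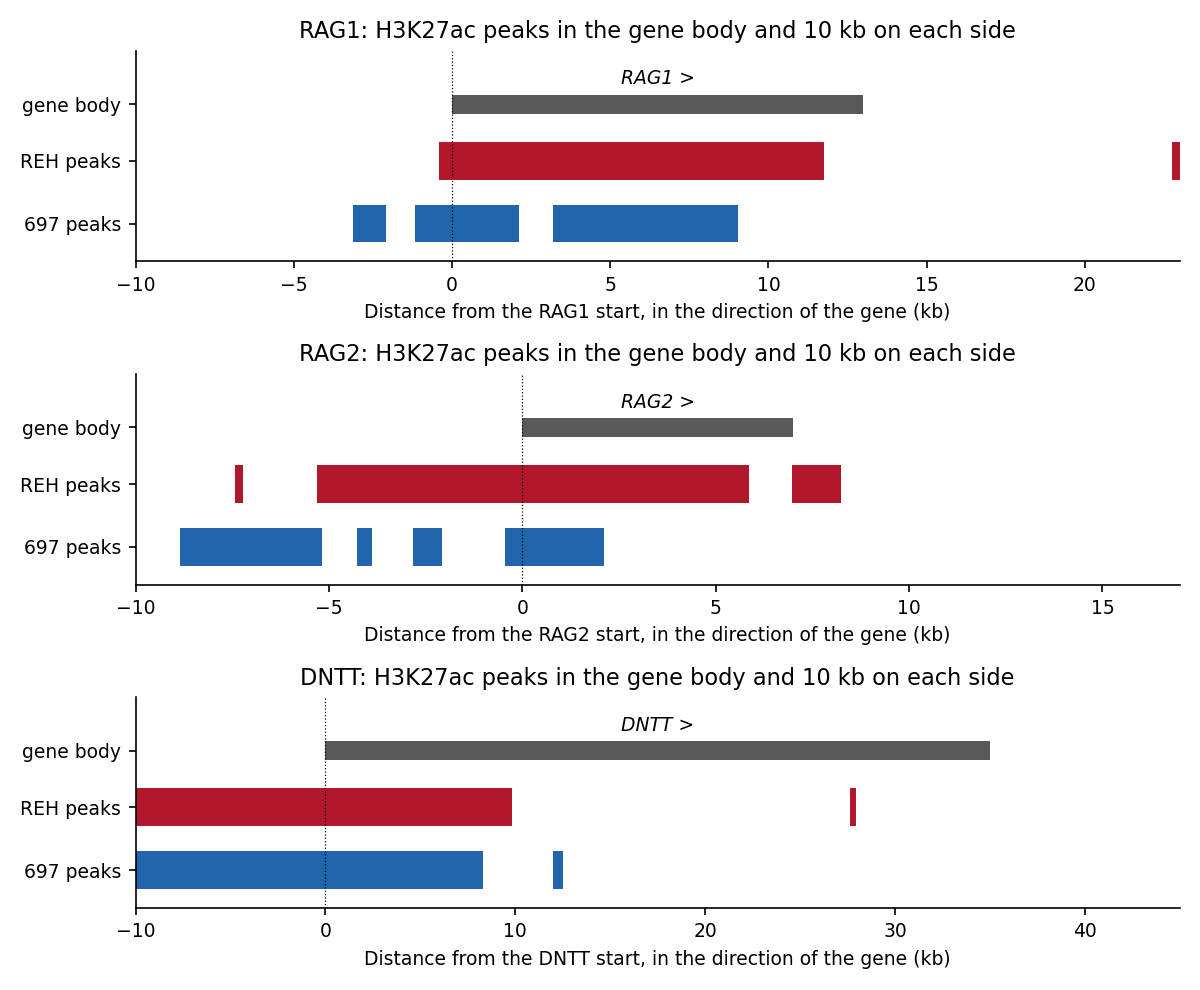
H3K27ac peaks (bars) of REH (red) and 697 (blue) in the windows of RAG1, RAG2 and DNTT, 1 library per line. The horizontal axis is the distance in kb from the start of each gene (dotted line), positive into the gene, and the grey bar is the gene body. A peak crosses the start of each gene in both lines, and the long REH peaks over RAG1 and RAG2 face several shorter 697 peaks, whereas the long peak at DNTT spans nearly the same stretch in both.

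At RAG1 the REH mark formed 1 block over nearly the whole gene. The body used lies on chromosome 11 from 36589 to 36602 kb of hg19. The REH peak ran from 36588591 to 36600748, 12158 bp, and began 0.409 kb before the start of the gene. Only 0.367% of the REH peaks were at least as long, and it ranked 164th by length. In 697 the same stretch held a peak of 3272 bp across the start, from 36587837 to 36591108, and one of 5863 bp inside the gene, from 36592188 to 36598050, with 1079 bp between them. The longer of these was matched in length by 1.97% of the 697 peaks. A further 697 peak of 1066 bp lay from 36585859 to 36586924, 2.08 to 3.14 kb before the start, where REH had none.

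Peaks covered 11748 bp of the RAG1 body in REH, which is 90.4%, and 7971 bp in 697, which is 61.3%. Every covered base of the body in 697 was also covered in REH, and 3777 bp were covered in REH alone. Over the whole window the values were closer, at 12401 bp for the 2 peaks of REH and 10201 bp for the 3 peaks of 697, or 1.22 times as much in REH. With only peaks of a deposited q-value of at most 0.05, the longer 697 peak was dropped, and the values were 12401 and 4338 bp. Of the 35954 tiles as wide as this window that held any peak, 1.44% had at least as many bases covered in REH and 5.25% in 697. Within 2 kb of the start the order was the other way, with 3164 bp covered in 697 and 2410 bp in REH, because the 697 peak reached 1.16 kb upstream.

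RAG2 showed the widest gap between the lines. Its body lies from 36613 to 36620 kb and is read from the right, so the start is the right end. The REH block here, 36614139 to 36625319 and 11181 bp long, crossed the start, ran 5.86 kb into the gene and reached 5.32 kb upstream of it. Only 0.444% of the REH peaks were at least as long, which gave it rank 198. A second REH peak of 1266 bp, from 36611758 to 36613023, lay at the 3′ end of RAG2 and just touched the body. This contact is within the rounding of the body to whole kb. In 697 the start was crossed by a peak of 2558 bp, from 36617882 to 36620439, a length reached by 12.6% of the 697 peaks. The upstream part of the REH block was met in 697 by peaks of 750, 372 and 3687 bp, the last of which lay mostly beyond the REH block, from 36625175 to 36628861. In GRCh38 the start of IFTAP lies 3.87 kb inside RAG2. Its canonical transcript, 64.8 kb long, runs from there past the RAG2 start and on upstream of RAG2. Peaks here and upstream of RAG2 were therefore not assigned to either gene.

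Peaks covered 5885 bp of the RAG2 body in REH, 84.1%, and 2119 bp in 697, 30.3%, and the former was 2.78 times the latter. All covered bases of the body in 697 lay under the REH peak too. In the window REH had 12664 bp under 3 peaks and 697 had 7367 bp under 4 peaks, and the ratio of REH to 697 was 1.72. Of these, 4042 bp were shared, 8622 bp were covered in REH alone and 3325 bp in 697 alone. Tiles with at least this coverage made up 0.978% in REH and 7.91% in 697. Over the whole genome the order was reversed, since REH peaks covered 67.9 Mb and 697 peaks 101.5 Mb, 0.669 times as much in REH as in 697.

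Between the genes, from 36602 to 36613 kb, neither line had a long block. The 1266 bp REH peak covered 1243 bp there, and 697 had 0 peaks. The windows of RAG1 and RAG2 overlap in this stretch, so that this REH peak counts in both. Over the joined windows, 51 kb in all, peaks covered 24822 bp in REH and 17568 bp in 697. Of these, 12423 bp were shared, which is 70.7% of the 697 total, and 12399 bp were covered in REH alone.

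**Figure D2:**
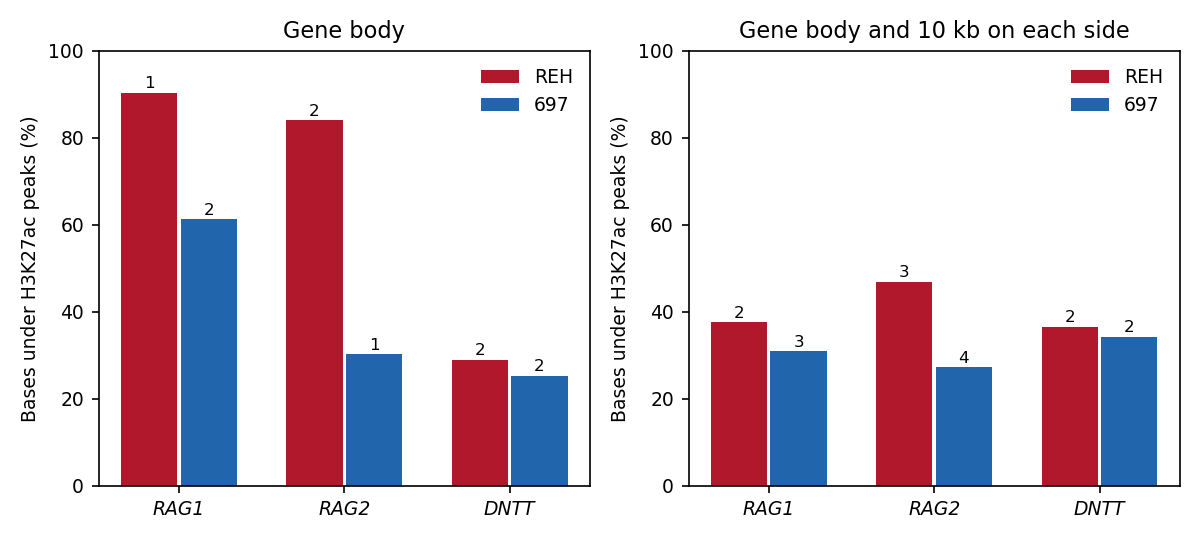
Percent of bases under H3K27ac peaks in REH (red) and 697 (blue) over the gene bodies (left) and over the bodies with 10 kb on each side (right), with the number of peaks above each bar; there are no error bars because each line has 1 library. The RAG2 body shows the widest gap, 84.1% against 30.3%, and DNTT the narrowest, 28.9% against 25.3%. Of the 2 REH peaks counted over the RAG2 body, 1 only touches its rounded 3′ edge.

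DNTT carried the longest block of the 3 genes, and it was nearly the same in both lines. The body lies on chromosome 10 from 98064 to 98099 kb. In REH the block ran from 98052587 to 98073840, 21254 bp, which made it the 21st longest of all 44626 REH peaks. In 697 it ran from 98052711 to 98072325, 19615 bp, the 34th longest of 74504. The left edges were 124 bp apart and the right edges 1515 bp apart, and the 697 block lay wholly within the REH block and covered 92.3% of it. Both began more than 11 kb before the start of DNTT, at 11.4 kb in REH and 11.3 kb in 697, and ended inside the gene, at 9.84 and 8.33 kb. The rest of the gene was nearly bare. REH had a peak of 286 bp at 27.6 to 27.9 kb into it, 697 had one of 519 bp at 12.0 to 12.5 kb, and neither overlapped a peak of the other line.

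The body of DNTT was thus covered to 28.9% in REH and 25.3% in 697, with all but the short peaks in its 5′ part. Peak bases in the window came to 20126 for REH and 18844 for 697, 1.07 times as many in REH. The shared 18325 bp were 91.1% of the REH and 97.2% of the 697 bases. Tiles of this width had at least as many covered bases in 0.780% of cases in REH and in 2.74% in 697.

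**Figure D3:**
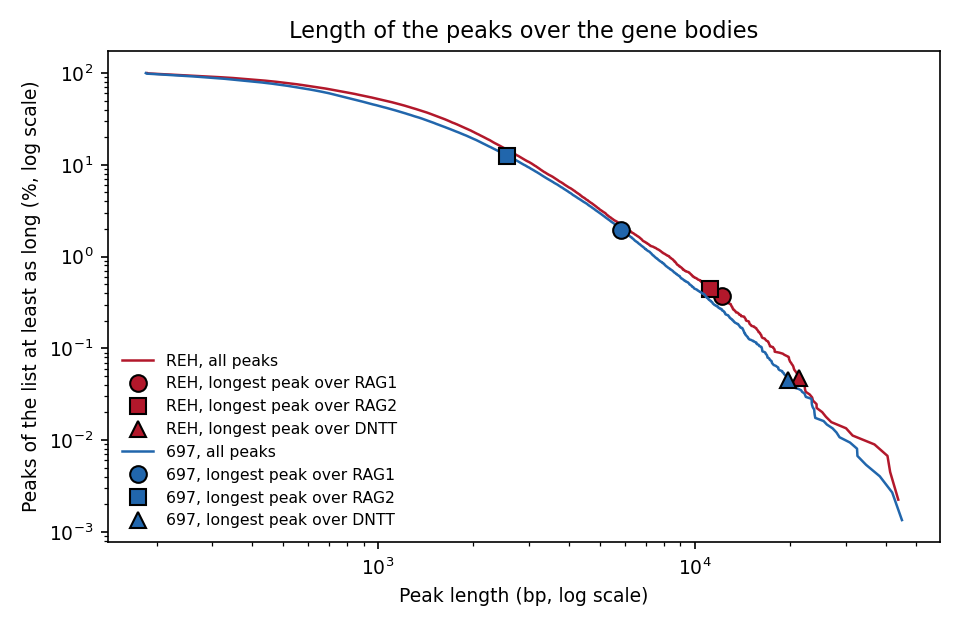
Length of each peak (horizontal, bp, log scale) against the percent of peaks in the same list that are at least as long (vertical, log scale), for all peaks of REH (red line) and 697 (blue line); symbols mark the longest peak over each gene body. The DNTT peaks of both lines lie at 0.0471% in REH and 0.0456% in 697, while the RAG1 and RAG2 peaks lie below 1% in REH and at 1.97% and 12.6% in 697.

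The peaks were then followed over 100 kb on each side of the genes. Around RAG1 the scan held 9 REH and 17 697 peaks, and 8 of the REH peaks overlapped a 697 peak, against 64.1% of all REH peaks. Of the 697 peaks 12 overlapped a REH peak, against 38.9% of all. A peak upstream of RAG1 was found at like positions in both lines, 36559781 to 36563163 for REH and 36559542 to 36562606 for 697, 25.8 to 29.5 kb before the start. Further upstream, both lines had a peak at 56.7 to 58.6 kb and another at 78.6 to 80.6 kb before the start. The 697 line had short peaks of its own there, of 510 bp and 185 bp. In GRCh38 the most upstream RAG1 start lies 57.6 kb before the canonical one, with the TRAF6 start next to it. TRAF6, 26.5 kb long, runs from there away from RAG1. The peaks at these distances were not assigned to 1 gene. On the other side, upstream of RAG2, a REH peak of 8624 bp from 36637415 to 36646038 wholly contained a 697 peak of 5113 bp from 36639105 to 36644217, at 17.4 to 26.0 kb before the RAG2 start in REH. Next to it, 31.5 to 33.9 kb before the start, a REH peak of 2401 bp was met by 697 peaks of 2007 and 1224 bp. On this side 697 alone had peaks of 610 and 903 bp. IFTAP runs through this side in GRCh38. In the RAG1 scan, which takes in RAG2, peaks covered 42511 bp in REH and 33561 bp in 697. The REH coverage lay mainly on the RAG2 side of RAG1, with 23689 bp in the 100 kb after the RAG1 body and 7074 bp in the 100 kb before it. In 697 these were 17224 and 8366 bp.

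Around DNTT most of the covered bases of both lines lay before the gene. The 100 kb before the start held 8 REH peaks over 37886 bp and 8 697 peaks over 33081 bp, and the 100 kb after the end held 3 REH peaks over 985 bp and 2 697 peaks over 967 bp. The body itself held 10126 of the 48997 covered bp of the REH scan and 8844 of the 42892 bp in 697. Next to the long block, a second block lay 98044726 to 98051593 for REH and 98044746 to 98051706 for 697, 6868 and 6961 bp long, and 99.7% of the REH block was covered in 697. A shorter peak preceded it in both lines, of 717 bp in REH and 1217 bp in 697. Further upstream both lines had a peak of over 7 kb, which measured 7458 bp (98026911 to 98034368) in REH and 7420 bp (98026315 to 98033734) in 697. A peak 63.0 to 69.3 kb before the start measured 6285 bp in REH and 4100 bp in 697. REH alone had peaks of 2651 and 2173 bp on either side of it, and one of 320 bp nearer DNTT. Before DNTT 697 alone had peaks of 781, 980 and 332 bp. BLNK is the gene upstream of DNTT, and in GRCh38 its start is 32.8 kb from that of DNTT. The peaks of over 7 kb lay 29.6 to 37.7 kb before DNTT, a range that takes in this distance. BLNK, 82.4 kb long, runs from its start away from DNTT. The covered bases before DNTT were not divided between the 2 genes. Of the 12 REH and 11 697 peaks in this scan, 6 in each line overlapped a peak of the other, against 64.1% of all REH peaks and 38.9% of all 697 peaks.

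**Figure D4:**
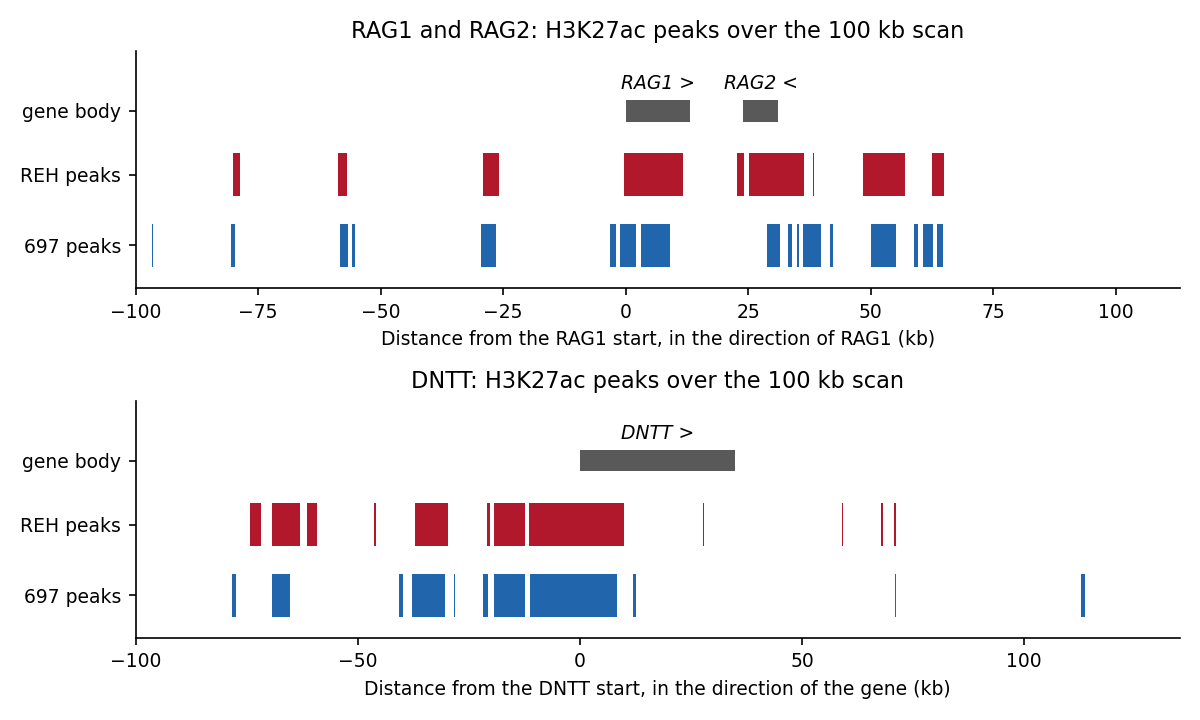
H3K27ac peaks of REH (red) and 697 (blue) within 100 kb of RAG1, with RAG2 in the same panel (top), and within 100 kb of DNTT (bottom), 1 library per line. The horizontal axis is the distance in kb from the start of RAG1 or DNTT, positive into the gene, grey bars are gene bodies, and arrowheads give their direction. Peaks of both lines stand 25.8 to 29.5 kb upstream of RAG1, and at DNTT the long peaks lie upstream of the gene or over its 5′ part, with short peaks further into and beyond the gene.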

How the data were processed

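The data are H3K27ac ChIP-seq of REH and 697, with 1 library and 1 input library for each line. Mapping by the authors used Bowtie on hg19 (Bowtie2 in the submitters' processing notes), and they, per the file headers, called broad peaks with MACS 2.1.0.20150731 (the methods name an earlier version), at q-value cutoffs of 0.05 and 0.1 with 1 tag kept per position. The tags kept were 65241657 in REH and 68911420 in 697, over 73916142 and 74026548 input tags. Deposited with each peak are its length in bp, a mean pileup signal, a fold enrichment ratio and a −log10 p-value and q-value. At 24932 peaks paired between the lines the Spearman correlation was 0.473 for length but 0.025 for pileup and 0.027 for −log10(p), a description over peaks that share 2 libraries, so only positions and lengths were compared. Peaks near the cutoff depend on depth, and the lists hold no counts.

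Bases under peaks were clipped to each window, with 1-based positions. The gene bodies were rounded to kb, so a start or an end is known to within 1 kb. Background values come from tiles of each window's width laid along all chromosomes up to the last peak, keeping those with a peak in either line. Genes named are the 3 members and their neighbours. Peaks at the other genes of V(D)J recombination and at cell type markers were not analysed here, as no hg19 annotation was at hand. The members, lists and motifs were chosen with earlier results of these data known. The interval code was tested on simulated data. The software was Python 3.11.15 with pandas 2.3.3 and numpy 2.4.6, matplotlib 3.10.9 and scipy 1.17.1.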

Additional observations from a re-analysis of the deposited data

How the results depend on the processing

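No paired analysis was possible because each cell line has 1 library and no test was made. A ratio was counted as moved when it changed by over 1.5 times. The count of differential genes, 0 in the main setting, was counted as moved at any other value. With the gene body alone, 1 gene was differential and the RAG2 ratio of REH to 697 was 2.78. With only peaks of a deposited q-value of at most 0.05, 1 gene was differential and the RAG1 ratio was 2.86, since the 697 peak of 5863 bp over RAG1 was dropped. With a fold of 1.5 in place of 2, 1 gene was differential, RAG2. Of 35 alternative values, 5 moved and 30 did not. Those that moved were the counts of differential genes at these settings and the RAG2 and RAG1 ratios given with them. The 30 include the empty count at a −log10(p) of at least 10, described below. The RAG2 ratio was 1.99, just short of the fold of 2, both at that q-value and with peaks of at least 1000 bp. Every ratio of window coverage that could be computed was above 1 for all 3 genes, whereas within 1, 2 and 5 kb of the RAG1 start 697 had more bases covered than REH. At a −log10(p) of at least 10 no peak was left in any window, so that the 0 differential genes there are empty and no ratio exists. Both settings on p or q use deposited values that were hardly related between the lines. When peaks within 1000 bp of each other were merged, the REH blocks upstream of and over DNTT became 1 block of 30803 bp, while the 697 block stayed at 19615 bp. The gap before the long block was 993 bp in REH and 1004 bp in 697, on either side of that limit. Each gene had a peak near its start in both lines at 1 and 5 kb as at 2 kb. With 1 library per line, neither culture nor library can be told apart from the line.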
